A study of Mus musculus with 3 samples.

Results

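CpG-poor promoters of protein-coding genes were examined in 3 bisulfite libraries of mouse ES cells. A promoter was taken as the region from 500 bp upstream to 500 bp downstream of the transcription start site (TSS) of an autosomal protein-coding gene of the GENCODE vM1 annotation on mm9. It was kept when it held 3 to 15 CpGs listed in any of the libraries and 20 or more observations in the REST knockout library, an observation being one read of one CpG. CpGs with more than 96 observations in that library were left out, as were olfactory and vomeronasal receptor genes (names starting with Olfr or Vmn). This gave 3546 of the 21418 autosomal protein-coding promoters, against 14601 promoters with more than 15 CpGs and as many observations. Methylation is the share of methylated observations summed over the CpGs of a promoter, and bisulfite treatment does not tell 5-methylcytosine from 5-hydroxymethylcytosine.

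Whole genome bisulfite sequencing (WG-BisSeq) gave a single library, of REST knockout ES cells of the strain Black Agouti 129, which lack the repressor REST and carry wild type CTCF as far as the labels state. ChIP-BisSeq, bisulfite sequencing of immunoprecipitated DNA, gave 2 replicate libraries, made with an anti-CTCF antibody from wild type ES cells of a mixed 129-C57Bl/6 background. DNA of 5 ChIP experiments was pooled for each of these replicates, and Drosophila carrier DNA was added. The cells grew on feeder cells or gelatine, and library DNA was amplified by 10 PCR cycles for WG-BisSeq and by 18 for ChIP-BisSeq. Genotype, strain and assay therefore differ together between the REST knockout library and the ChIP-BisSeq libraries and cannot be told apart.

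In mammalian genomes most CpGs are methylated, and methylated cytosines tend to be lost by mutation over evolutionary time. Promoters of housekeeping and developmental genes usually lie in CpG islands, which are dense in CpGs and stay unmethylated in most cells, whether or not the gene is transcribed. CpG-poor promoters are typical of genes used in few cell types, such as those for liver plasma proteins or immune receptors, and are often methylated where the gene is silent. CTCF is a zinc finger protein that binds insulators and loop anchors, and REST is a repressor of neuronal genes in other cell types.

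The promoters that the results turn on are shown by the 200 bases upstream of the TSS, clear of annotated exons, that carried the most observations, read from mm9 on the strand of the gene. They stand for the range of methylation found: low (Htr3a, Dppa2), intermediate (Tbxa2r), high (Cyp8b1) and lower in the REST knockout library than in ChIP-BisSeq (Hagh). Abcb8 and Psen2 stand for promoters of high coverage in CTCF ChIP-BisSeq. Capitals mark CpGs and, in Cyp8b1, also the TATAAA element. Htr3a encodes a subunit of a serotonin-gated channel and lies at chr9:48719225-48719424 on the minus strand, Dppa2 encodes a DNA-binding protein of ES cells and lies at chr16:48310145-48310344 on the plus strand, and Tbxa2r encodes the thromboxane receptor and lies at chr10:80791267-80791466 on the plus strand. Cyp8b1, a bile acid synthesis enzyme, lies at chr9:121825424-121825623 on the minus strand. Hagh, a glyoxalase, lies at chr17:24976733-24976932 on the plus strand, Abcb8, a mitochondrial transporter, at chr5:23899196-23899395 on the plus strand and Psen2, a presenilin, at chr1:182193870-182194069 on the minus strand.
Htr3a: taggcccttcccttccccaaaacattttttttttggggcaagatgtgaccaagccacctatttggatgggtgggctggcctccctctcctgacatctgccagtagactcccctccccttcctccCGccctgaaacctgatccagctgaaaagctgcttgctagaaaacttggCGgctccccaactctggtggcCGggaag
Dppa2: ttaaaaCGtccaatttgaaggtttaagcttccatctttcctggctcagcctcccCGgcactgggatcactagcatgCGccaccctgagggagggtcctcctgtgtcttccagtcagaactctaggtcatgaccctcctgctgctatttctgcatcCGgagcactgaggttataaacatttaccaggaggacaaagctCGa
Tbxa2r: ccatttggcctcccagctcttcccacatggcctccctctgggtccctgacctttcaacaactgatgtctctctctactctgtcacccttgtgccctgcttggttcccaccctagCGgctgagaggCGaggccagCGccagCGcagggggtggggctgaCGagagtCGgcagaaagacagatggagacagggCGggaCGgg
Cyp8b1: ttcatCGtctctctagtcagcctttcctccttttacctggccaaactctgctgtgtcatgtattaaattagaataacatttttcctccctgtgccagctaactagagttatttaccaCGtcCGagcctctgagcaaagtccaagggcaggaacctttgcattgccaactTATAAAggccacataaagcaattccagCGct
Hagh: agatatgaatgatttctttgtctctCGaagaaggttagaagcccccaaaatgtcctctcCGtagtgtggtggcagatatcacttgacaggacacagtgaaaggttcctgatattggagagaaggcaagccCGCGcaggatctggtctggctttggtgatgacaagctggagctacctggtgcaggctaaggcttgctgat
Abcb8: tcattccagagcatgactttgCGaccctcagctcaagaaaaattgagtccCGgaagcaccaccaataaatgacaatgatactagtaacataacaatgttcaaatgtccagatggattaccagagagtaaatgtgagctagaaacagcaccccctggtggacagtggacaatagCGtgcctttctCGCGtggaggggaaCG
Psen2: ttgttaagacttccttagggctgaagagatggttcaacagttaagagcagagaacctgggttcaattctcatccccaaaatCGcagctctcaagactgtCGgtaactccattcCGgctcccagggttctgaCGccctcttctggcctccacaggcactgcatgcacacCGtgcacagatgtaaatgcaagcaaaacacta

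The 3 CpGs printed for Htr3a had 4 methylated of 45 observations in the REST knockout library, and the 5 CpGs printed for Dppa2 had 0 of 18. Over the 4 printed CpGs of Cyp8b1, 30 of 34 observations were methylated. The 8 printed CpGs of Tbxa2r were intermediate, with 111 of 251. Over the 6 printed CpGs of Abcb8, the REST knockout library had 12 methylated of 21 observations, ChIP-BisSeq replicate 1 had 15 of 236 and replicate 2 had 29 of 279. The 5 of Psen2 were low in each library, with 8 of 31, 61 of 339 and 28 of 237. In Hagh, 13 of 147 observations were methylated in the REST knockout library, and all 11 and all 6 in the ChIP-BisSeq replicates.

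The REST knockout library covered 88.0% of the 38657 CpGs listed in these promoters, at a median of 7 observations, replicate 1 of ChIP-BisSeq 12.7% at a median of 3 and replicate 2 35.5% at a median of 2. A promoter had between 20 and 781 observations in the REST knockout library, with a median of 76, for which the exact 95% binomial (Clopper-Pearson) interval of its methylation had a median width of 20.5 percentage points. Intervals cover counting error only, since CpGs on one read are not independent and PCR copies may have been counted. No observation was listed for 1394 of the promoters in replicate 1 and for 297 in replicate 2. RNA was not measured, and methylation did not serve as a check of the cell type, since 32 of the 39 promoters of pluripotency genes with more than 15 CpGs were below 30% in the REST knockout library, no larger a share than the 86.7% over all such promoters.

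CpG-poor promoters were mostly methylated in REST knockout ES cells, but few were fully so. Their median methylation was 69.4%, with quartiles of 57.3% and 77.8%, and 11 had methylated observations only. Below 30% were 193 promoters (5.44%), between 30 and 70% were 1652 (46.6%) and above 70% were 1701 (48.0%). Promoters with more than 15 CpGs had a median of 5.79%, and 12652 of 14601 of them were below 30%. The whole interval lay below 30% for 99 CpG-poor promoters, above 70% for 620 and within 30 to 70% for 563, so that the class of the others rests on counts too few to place them. On the single chromosomes the median ran from 67.4% on chromosome 1 to 72.7% on chromosome 16, and the share below 30% from 2.18% on chromosome 1 to 12.2% on chromosome 2.

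**Figure D1:**
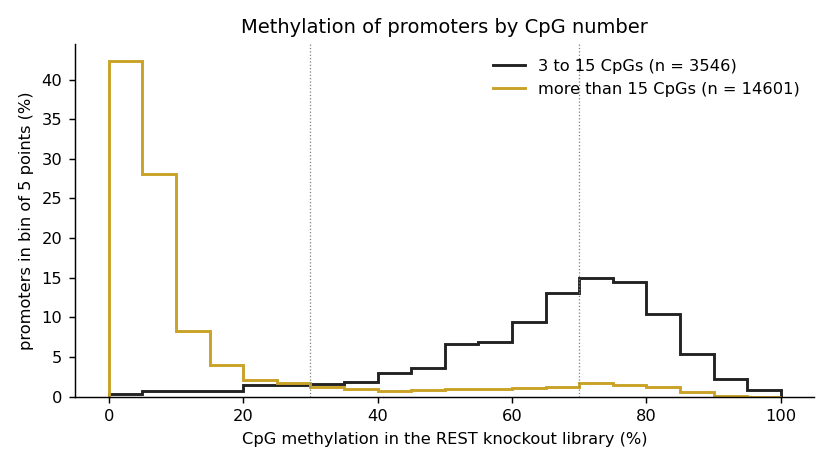
Share of promoters (vertical axis, percent per bin of 5 percentage points) by CpG methylation in the REST knockout library (horizontal axis, percent), for promoters with 3 to 15 CpGs (black) and with more than 15 CpGs (yellow). Dotted lines mark 30 and 70%. CpG-poor promoters spread broadly around a median of 69.4%, while the others pile up near 0, with a median of 5.79%.

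The median hardly moved with the number of CpGs within the range chosen, while the share below 30% was 5.88% at 3 CpGs, 0 of 198 promoters at 5 CpGs, 8.71% at 10 and 9.39% at 15. Promoters with 15 listed CpGs had a median of 69.2% (n = 277), and those just outside, with 16, had 62.7% (n = 208). At the other end, promoters with 3 CpGs had 66.7% (n = 85) and those with 2 had 64.4% (n = 29). At the limit of coverage, promoters with 20 to 24 observations had 70.4% (n = 222) and those with 15 to 19 had 72.2% (n = 233).

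Methylation was nearly flat across the CpG-poor promoters. In bins of 100 bp the REST knockout library was lowest just upstream of the TSS, at 61.4%, and between 63.8 and 66.4% in the other bins of the window. In promoters with more than 15 CpGs the same bin had 5.94%. The profiles of ChIP-BisSeq fell to 43.9% in replicate 1 and 48.3% in replicate 2 just upstream of the TSS, but without the 42 CTCF-covered promoters described below they stood at 65.9 and 63.9%. For 2382 promoters with at least 10 observations on each side, the upstream part had a median of 68.6% and the downstream part one of 70.0%. Beyond the window the REST knockout profile fell, to 45.9% from 900 to 999 bp downstream, a stretch where the limit on CpG number no longer applied.

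**Figure D2:**
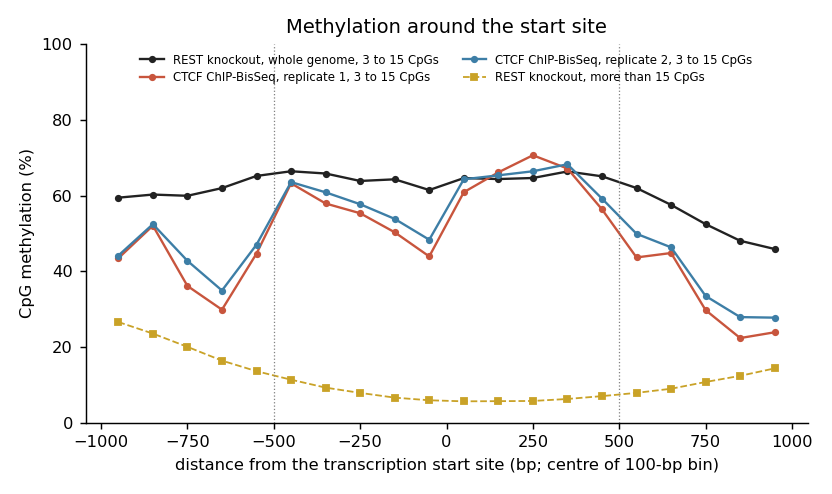
CpG methylation (vertical axis, percent of observations) in bins of 100 bp by distance from the TSS (horizontal axis, bp) for CpG-poor promoters in the REST knockout library (black) and in both ChIP-BisSeq replicates (red, blue), and for promoters with more than 15 CpGs in the REST knockout library (yellow, dashed). Dotted lines mark the promoter window. The black line stays between 61.4 and 66.4% within the window, and the yellow line is below 15%.

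Most weakly methylated promoters lay below the level of the DNA around them. Among 188 promoters below 30% with enough flanking observations, the DNA from 1000 to 3000 bp on both sides had a median of 54.3%, and 133 (70.7%) were at least 20 percentage points below their flank. The other 55 were not, and some of the lowest lay in weakly methylated flanks, such as Tmem79 (flank 14.4%) and Fam169a (10.7%). Of all 3471 CpG-poor promoters with such a flank, 449 (12.9%) had a drop of this size, against 74.7% of promoters with more than 15 CpGs. Class and drop come from the same promoter counts, so the larger share among weakly methylated promoters is in part fixed by the class. Across CpG-poor promoters, flank and promoter correlated weakly (Pearson's r = 0.26, n = 3471, a description over promoters of 1 library).

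The 15 promoters with the lowest upper bound among those with at least 100 observations lay between 1.73 and 5.86%. Tmem79, a membrane protein of the skin barrier, had 14 methylated of 497 observations (2.82%, interval 1.55 to 4.68%), and a CpG-rich promoter lies within 2 kb of it. 1190003J15Rik had 18 of 536 (3.36%, interval 2.00 to 5.26%) within a flank of 65.6%. Ctnnd1, a catenin that binds cadherins, had 11 of 297 (3.70%). The histone gene Hist1h4n had 9 of 216 (4.17%), but its window holds 57 CpGs in the reference, of which 15 are listed in the files. This matters more widely, since 313 of the CpG-poor promoters have more than 15 CpGs in mm9, and 13.1% of those were below 30%, against 4.70% of the other 3233. The 313 were not lower as a group, with a median of 70.5% against 69.2% and 50.5% against 47.7% above 70%.

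Several of these 15 lie in groups on 2 chromosomes. On chromosome 2, Zfp345 (7 of 141, 4.96%) and Gm14124 (6 of 127, 4.72%) lie near each other. Zfp931 (6 of 170, 3.53%), Gm14295 (8 of 182, 4.40%) and Gm14420 (11 of 226, 4.87%) lie in a separate stretch of that chromosome. Zfp456 (7 of 162, 4.32%) and Zfp455 (18 of 307, 5.86%) lie on chromosome 13. Zinc finger genes often sit in tandem arrays of near-identical copies, where reads may have been placed on the wrong copy, and Zfp931, Gm14295 and Gm14420 have 23, 23 and 19 CpGs in the reference. Of 50 CpG-poor promoters with a Zfp name, 9 were below 30%, against 5.44% of all CpG-poor promoters, and the median was 64.4%. In ChIP-BisSeq, Zfp456 had 0 of 29 methylated observations in replicate 1 and 3 of 15 in replicate 2, and Zfp455 had 0 of 10 and 4 of 27.

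The 5 promoters with the highest lower bound among those with at least 100 observations lay between 90.2 and 93.8%. Actl7a, an actin-like protein of the testis, had 195 methylated of 208 observations (93.8%, interval 89.5 to 96.6%). Opn4, the photopigment melanopsin of the retina, had 94 of 101 (93.1%) and Cyp8b1 had 122 of 133 (91.7%, interval 85.7 to 95.8%). The other two were Gm5263 (140 of 153, 91.5%) and Gm6843 (193 of 214, 90.2%). Opn4 was also methylated in all 8 observations of each ChIP-BisSeq replicate. Cyp8b1 had 18 of 18 in replicate 2 but 2 of 8 in replicate 1, in which the 6 unmethylated observations are all at 1 CpG, next to the TSS.

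CpGs of unlike methylation occurred within single promoters of each class. Among the 5 most observed promoters between 45 and 55%, Adprhl1 had 395 methylated of 771 observations (51.2%, interval 47.6 to 54.8%), yet its CpGs spread 7.7 times as much as counting error gives (ratio of variances). Ostb, a bile acid transporter subunit, had 176 of 381 (46.2%, variance ratio 4.3) and Tbxa2r 204 of 451 (45.2%, variance ratio 3.8). The spread was smaller in Lypd2 (262 of 519, 50.5%, variance ratio 2.16) and in Gm11563 (162 of 358, 45.3%, variance ratio 1.56). In Tbxa2r, the CpG 25 bp downstream of the TSS had 7 of 32 methylated observations and that 361 bp downstream had 17 of 20. Over all CpG-poor promoters the median variance ratio was 1.62, and it was above 2 in 35.3%, in 43.5% of those below 30%, 39.8% of the intermediate and 30.1% of those above 70%. Of 871 intermediate promoters with at least 3 CpGs of 10 or more observations, 212 (24.3%) held both a CpG below 30% and one above 70%, and in 109 (12.5%) every such CpG was between these limits.

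Pluripotency genes were the gene list with the lowest median, 53.3%, and it held 9 CpG-poor promoters. Dppa2 had 3 methylated of 35 observations in the REST knockout library (8.57%, interval 1.80 to 23.1%). In ChIP-BisSeq it had 14 of 22 in replicate 1 and 0 of 18 in replicate 2, so that the replicates were far apart there. Fbxo15, an F-box protein of ES cells, had 9 of 70 (12.9%), and Spp1, the secreted protein osteopontin, 17 of 70 (24.3%). The early cleavage genes Zscan4c (24 of 45, 53.3%) and Zscan4d (20 of 25, 80.0%), the nuclear receptor Nr5a2 (15 of 24, 62.5%), Dppa1 (20 of 40, 50.0%), Pramel6 (16 of 24, 66.7%) and Pramel7 (34 of 39, 87.2%) were higher. Zscan4c and Zscan4d have near-identical copies, and at 24 to 45 observations most neighbours in this order have intervals that overlap.

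Over 22 lists of genes with a known place of expression, 9 of 485 CpG-poor promoters were below 30% (1.86%), against 5.44% of all CpG-poor promoters, and 3 of the 9 were the pluripotency genes Dppa2, Fbxo15 and Spp1. In the lists for liver secreted proteins (42 promoters, median 72.5%), pancreatic and gut enzymes (29, median 73.4%), muscle (26, median 71.9%), cytokines and chemokines (38, median 72.1%) and epidermis and hair (19, median 74.3%) there was none below 30%. Medians were lower for liver metabolism (17 promoters, 64.7%), for taste and trace amine receptors (19, 65.4%) and for globins and erythroid genes (7, 65.5%). Each of these lists mixed high and intermediate members, so the lists overlap broadly in level.

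**Figure D3:**
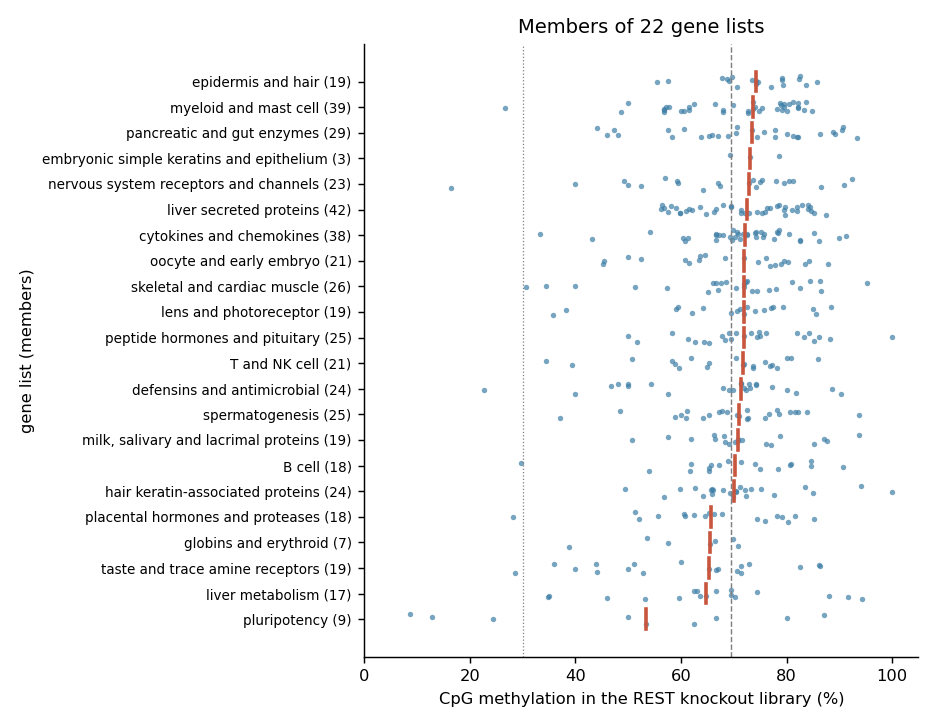
CpG methylation in the REST knockout library (horizontal axis, percent) of the CpG-poor promoters of 22 gene lists (vertical axis, number of promoters in brackets). Each point is 1 promoter and the red bar is the median of the list. The dashed line is the median of all CpG-poor promoters, 69.4%, and the dotted line marks 30%. The pluripotency list has 3 of 9 points below 30%, all the other lists together 6.

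Single genes of these lists showed the range. Among liver genes, Uox, urate oxidase, had 50 of 53 methylated observations (94.3%) and Itih1, a plasma protein, 35 of 40 (87.5%), while Pklr, the liver and red cell pyruvate kinase, had 51 of 146 (34.9%, interval 27.2 to 43.3%) and Cyp2e1, an enzyme of ethanol oxidation, 15 of 43 (34.9%). Pklr was also low in ChIP-BisSeq, with 6 of 19 and 20 of 65. Within the T and NK cell, B cell, myeloid and cytokine lists, Cd68, a lysosomal protein of macrophages, was lowest. It had 75 of 281 (26.7%, interval 21.6 to 32.3%), and 2 of 12 and 1 of 19 in ChIP-BisSeq. Btla, a lymphocyte receptor, had 16 of 54 (29.6%) within a flank of 74.1%. The chemokine gene Ccl20 had 45 of 135 (33.3%), whereas the interleukin genes Il17a (45 of 50) and Il9 (42 of 46) were high. Among B cell genes Vpreb2, a surrogate light chain, had 98 of 108 (90.7%).

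Among neural genes, Htr3a had 46 methylated of 281 observations (16.4%, interval 12.2 to 21.2%) within a flank of 76.4%, and Th, the dopamine synthesis enzyme, had 179 of 207 (86.5%). In Htr3a each of the 11 CpGs from the first to 289 bp downstream of the TSS was at or below 25.0%, and the last, 455 bp downstream, had 5 of 6. Lens and retina genes included Mip, the lens aquaporin (101 of 283, 35.7%), Cryab, a crystallin (75 of 196, 38.3%, with a CpG-rich promoter within 2 kb) and Rbp3, a retinoid-binding protein (189 of 221, 85.5%). In muscle, Eno3, an enolase, had 59 of 171 (34.5%), but its flank was at 9.64%, whereas the myosin heavy chain genes Myh3 (69 of 80, 86.2%) and Myh7 (45 of 52, 86.5%) were high. Of spermatogenic genes, Pgk2, a glycolytic kinase, had 90 of 96 (93.8%) and Pdha2, the testis form of a pyruvate dehydrogenase subunit, 30 of 81 (37.0%) within a flank of 88.3%.

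A few sequence features differed in frequency between CpG-poor and CpG-rich promoters. A TATAAA with its first base from 40 to 20 bp upstream of the TSS, on the strand of the gene, was found in 190 CpG-poor promoters (5.36%), against 1.14% of those with more than 15 CpGs and 2.42% of all. It was present in 2 of the 193 promoters below 30% (1.04%), one of them Dppa2, and in 107 of the 1701 above 70% (6.29%). Promoters with the element had a median of 72.6% and those without it 69.2%. The octamer ATGCAAAT, searched on both strands over the whole window, was in 5.53% of CpG-poor promoters, 3.14% of the CpG-rich and 4.02% of all, and the CpG-poor promoters with it had a median of 67.8%. The windows had a GC content of 47.6% (median) and a ratio of observed to expected CpGs of 0.19, against 58.7% and 0.71. A match says only that the letters are present.

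Matches to the REST consensus were rare. It was searched as a fixed string, so sites with another spacing or with more mismatches were not found. A match to the REST consensus with at most 3 mismatches, on either strand, lay in 3 CpG-poor promoters (0.0846%), against 0.507% of those with more than 15 CpGs and 0.360% of all. They belong to Lamb3, a laminin chain (128 of 270 observations methylated), Vip, a neuropeptide (30 of 40) and Pdcd1lg2, a ligand of an inhibitory receptor of T cells (29 of 36). In the ChIP-BisSeq libraries of wild type cells, Vip had 72.7% of 11 observations in replicate 1 and 88.2% of 17 in replicate 2, against the 30 of 40 in the REST knockout library, while Lamb3 and Pdcd1lg2 had 5 or fewer observations in each.

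CTCF covered few of the CpG-poor promoters. Coverage by ChIP-BisSeq was expressed as the log2 of its mean per CpG relative to the library mean, minus the same log2 value of the REST knockout library, with a pseudocount of 1. A promoter was called covered at 2 or more in both replicates. This held for 42 CpG-poor promoters (1.18%), against 2.72% of promoters with more than 15 CpGs. It held for 5.57% of all 21418 autosomal promoters, which include those with fewer than 20 observations in the REST knockout library. With the pseudocount, a promoter without observations in any library passes the limit, so the 5.57% is not a share covered by CTCF. The covered promoters had a median methylation of 45.2% in the REST knockout library, with 13 below 30%, 25 intermediate and 4 above 70%, and the other 3504 had 69.6%. In the ChIP-BisSeq replicates the covered promoters had medians of 19.5 and 17.9%. An exact match to the CTCF consensus on either strand was present in 14 of the 42 (33.3%) and in 1.54% of the others. It was in 1.95% of all promoters.

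By the lower of the values in both replicates, coverage was highest at Parp11, an ADP-ribosyltransferase, with log2 values of 4.93 and 5.00. Its methylation was 59.4% in the REST knockout library (19 of 32), 11.5% in replicate 1 (27 of 235) and 17.9% in replicate 2 (59 of 329). Abcb8 had log2 values of 4.64 and 4.55, and its methylation was 62.8% (27 of 43), 6.36% (15 of 236) and 12.3% (36 of 293). Psen2 had log2 values of 5.11 and 4.27 and was lower already in the REST knockout library, with 17 of 49, against 79 of 363 and 42 of 263. Pcp4, a calmodulin-binding protein of neurons, had 27.0% (27 of 100), 14.4% (52 of 362) and 8.54% (34 of 398). Gm11102 was covered and yet methylated in ChIP-BisSeq, with 77.5% (62 of 80) and 48.3% (57 of 118), against 60.9% in the REST knockout library (14 of 23). Of the 10 promoters of highest coverage, 3 were protocadherin genes (Pcdhb16, Pcdhb7 and Pcdhb5).

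The ChIP-BisSeq observations of a CpG mostly had the same state. Among CpGs with exactly 4 observations in CpG-poor promoters that were not CTCF-covered, all 4 had the same state at 552 of 566 CpGs in replicate 1 (97.5%) and at 734 of 969 in replicate 2 (75.7%), against 1188 of 2623 in the REST knockout library (45.3%). The share of methylated observations at these CpGs was 80.2, 72.7 and 69.8%. In the CTCF-covered promoters, 19 of 21 such CpGs in replicate 1 (90.5%), 21 of 30 in replicate 2 and 18 of 50 in the REST knockout library had 1 state. At 8 observations the shares were 81.4% (70 CpGs), 43.1% (65 CpGs) and 18.7% (1682 CpGs). Observations of one CpG were therefore not independent in ChIP-BisSeq, and p-values that treat them so are too small. The part of PCR copies in this was not tested.

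**Figure D4:**
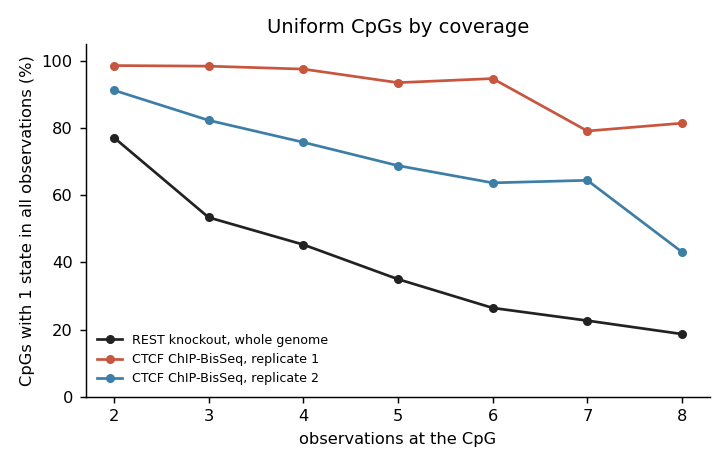
Share of CpGs whose observations all had the same state (vertical axis, percent) by the number of observations at the CpG (horizontal axis), over CpGs of CpG-poor promoters that were not CTCF-covered, in the REST knockout library (black) and ChIP-BisSeq replicates 1 (red) and 2 (blue). At 4 observations the share was 45.3% in the REST knockout library, 97.5% in replicate 1 and 75.7% in replicate 2.

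With that limit, the replicates of ChIP-BisSeq placed CpG-poor promoters in a similar order. For 317 promoters with at least 10 observations in each, Pearson's r was 0.75 and Spearman's rho 0.72 (a description over promoters, which share libraries), and 209 (65.9%) differed by less than 20 percentage points. Over the same promoters the REST knockout library had an r of 0.68 with replicate 1 and 0.74 with replicate 2, hardly below that between the replicates. With at least 20 observations in each, r was 0.86 over 100 promoters, and 81 differed by less than 20 points. The REST knockout library then had an r of 0.68 and 0.69 with replicates 1 and 2. Of 65 promoters below 30% in the REST knockout library with enough observations, 39 were below 30% in both replicates and 1 was above 70% in both. Of 100 above 70%, 66 were above 70% in both and 0 below 30% in both.

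As a whole, CpG-poor promoters not called CTCF-covered were somewhat more methylated in ChIP-BisSeq than in the REST knockout library. Being below the coverage limit does not show that CTCF was absent. Summed over the 3504 promoters, 64.8% of observations were methylated in the REST knockout library, 71.0% in replicate 1 (15070 observations) and 69.5% in replicate 2 (31661 observations). For the 452 promoters with at least 10 observations in replicate 1 the median was 84.2%, and it was 65.4% for the same promoters in the REST knockout library. Summed over these promoters the gap was smaller, 62.1 against 58.2%, and the share below 30% was 15.5 against 14.2%. For the 1140 in replicate 2 the medians were 80.0 and 67.8% and the sums 64.9 and 61.0%. With 1 REST knockout library there is no replicate against which to test this difference.

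Single promoters were compared between libraries by a two-sided Fisher's exact test of the summed observations with Benjamini-Hochberg adjustment over the 13218 promoters with enough observations, of which 317 were CpG-poor. A promoter was called when both replicates passed an adjusted p of 0.05 and differed from the REST knockout library by 20 percentage points or more, both upwards or both downwards. Of the 317, 17 were higher in the REST knockout library (5.36%, against 0.825% of all promoters tested) and 12 were lower (3.79%, against 0.613% of all promoters tested). In a single test with the same limits, the replicates differed from each other at 34 (10.7%, against 3.56% of all promoters tested), 22 of them higher in replicate 1. Single tests of the REST knockout library passed at 81 of the 317 against replicate 1 (against 5.5% of all promoters tested) and at 58 against replicate 2 (against 3.31%). Most promoters with more than 15 CpGs were near 0 in all libraries and could hardly differ downwards, so the shares are not those of like promoters.

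These calls rest on treating observations as independent. When each CpG was counted as 1 observation in ChIP-BisSeq, with at least 5 CpGs in each replicate, none of 168 CpG-poor promoters was called in either direction by Fisher's exact test, and at an unadjusted p of 0.05 in both replicates 1 was higher and 3 were lower in the REST knockout library. With 1 CpG per promoter, 30 could be tested and none was called, with 1 in each direction at an unadjusted p of 0.05. Both settings also hold far fewer counts. The promoters named next are therefore differences in the deposited observations.

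Of the 17 promoters higher in the REST knockout library, 12 were CTCF-covered, out of 42 covered among the 317 tested. The 42 had medians of 116.5 and 166.5 observations in replicates 1 and 2, the other 275 had 15 and 18. Differences were therefore easier to call in covered promoters, and coverage comes from the same ChIP-BisSeq counts. A link of the calls to CTCF was not tested. Of the 17, 6 were protocadherin genes (Pcdhb4, Pcdhb5, Pcdhb7, Pcdhb9, Pcdhb15 and Pcdhb18). The Pcdhb promoters tested numbered 11, of which 8 were covered, and 5 were not called. Among these, Pcdhb12 was lower in the REST knockout library (33.8%, against 63.2 and 48.3%, of which the second difference did not pass), and Pcdhb16 was low in each library (14.8, 19.5 and 10.8%). Abcb8 differed most, by 56.4 and 50.5 percentage points (Fisher's exact test, adjusted p = 5.5e-14 against replicate 1). Parp11 differed by 47.9 and 41.4 points and Trpm5, a cation channel of taste cells, by 41.0 and 35.9 points, from 70.1% to 29.1 and 34.2%. The libraries spread their observations over the CpGs of a window in different ways. At the same CpGs, weighted by ChIP-BisSeq coverage, the median difference of the 17 was 19.5 points in place of 40.01, and 7 still differed by at least 20. Abcb8 kept its difference, with 60.6 and 56.1% in the REST knockout library at those CpGs. The mean difference of Parp11 fell from 44.7 to 22.5 points, with 46.5 against 16.7% at the CpGs of replicate 1 and 36.2 against 20.99% at the CpGs of replicate 2. Prpsap1, which binds an enzyme of nucleotide synthesis, lost it: 58.8% over the window became 6.02 and 8.50% at the CpGs covered, against 12.8 and 12.7% in ChIP-BisSeq. Pcdhb5 and the sodium channel gene Scn2a1 also turned, to differences of -2.90 and -1.98 points (means over both replicates). For Scn2a1, leaving out CpGs without REST knockout observations raised ChIP-BisSeq from 10.2 and 26.5% to 46.4 and 56.4%. The 17 were picked by their difference over the window. Among covered promoters not called, values at the same CpGs moved both ways. In the REST knockout library, Pcdhb10 went from 18.6 to 100 and 92.8%, against 18.5 and 42.5% in ChIP-BisSeq. Aanat went from 22.3 to 12.5 and 13.8%, against 11.2 and 7.49%.

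The 5 other promoters called higher were Pcdhb9, Hapln2, Pcdhb18, Dnase2b and Rpl21-ps11. Pcdhb9 (log2 coverage 1.995 and 2.21), Hapln2 (2.20 and 1.997, with an exact CTCF match) and Pcdhb18 (2.15 and 1.84) missed the coverage limit of 2 in 1 replicate each, whereas Dnase2b (0.69 and 0.90) and Rpl21-ps11 (1.42 and 1.54) were below it in both. Dnase2b, a nuclease of the lens, had 58 methylated of 66 observations (87.9%) in the REST knockout library, 3 of 10 in replicate 1 and 10 of 22 in replicate 2. Its window overlaps that of Uox, which had 3 of 10 and 11 of 11 in ChIP-BisSeq. Rpl21-ps11 carries the name of a ribosomal protein pseudogene, and reads of near-identical copies cannot be told apart there. It had 84.1% against 28.6 and 53.8%, but 28.6 and 57.7% at the CpGs that ChIP-BisSeq covered. Hapln2, a link protein of brain matrix, had 55.6% against 16.4 and 24.4%, but 20.5 and 25.3% at those CpGs, and the mean difference of Pcdhb18 fell from 21.7 to 0.60 points there.

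None of the 12 promoters lower in the REST knockout library was CTCF-covered. Hagh had 54 methylated of 216 observations (25.0%, interval 19.4 to 31.3%) in the REST knockout library, 15 of 15 in replicate 1 and 12 of 12 in replicate 2. Within Hagh a pair of neighbouring CpGs 225 and 223 bp upstream of the TSS held most observations, with 1 of 71 and 7 of 68 methylated. The 25.0% of the window, its class and the size of the difference rest largely on this pair. Each other CpG with observations was at or above 33.3% in the REST knockout library, such as 16 of 22 at 471 bp downstream. Weighted to the CpGs of replicate 2, the REST knockout library had 48.3%. The variance ratio among the CpGs of Hagh was 11. Sec14l2, a lipid-binding protein, had 9 of 35 (25.7%), 21 of 21 and 13 of 21. Pfas, an enzyme of purine synthesis, had 21 of 135 (15.6%), 10 of 14 and 15 of 29, and its flank was at 10.1%. Bex6 had 30 of 58 (51.7%), 10 of 10 and 21 of 22. At the same CpGs, 11 of the 12 still differed by at least 20 points, with a median of -41.0 in place of -43.7. In replicate 1, 7 of the 12 had methylated observations only.

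**Figure D5:**
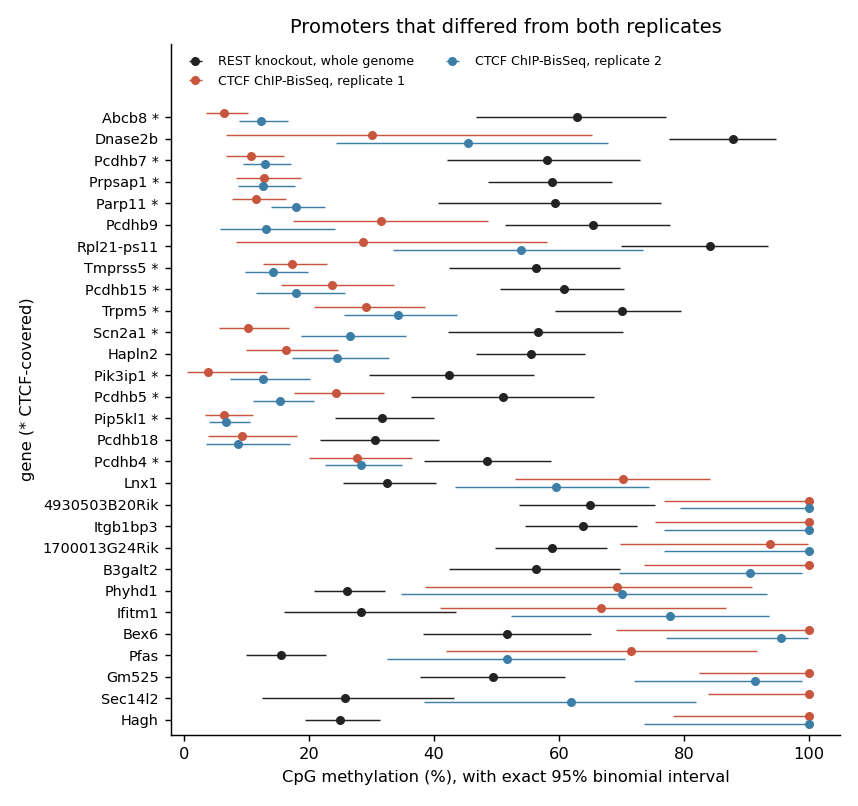
CpG methylation (horizontal axis, percent) of the 29 CpG-poor promoters that differed between the REST knockout library (black) and both ChIP-BisSeq replicates (red, blue), with exact 95% binomial intervals that cover counting error only. Genes are ordered by the mean difference and an asterisk marks CTCF-covered promoters. The 17 upper promoters are higher in the REST knockout library, 12 of them CTCF-covered, and the 12 lower ones are lower, none CTCF-covered.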

How the data were processed

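The authors deposited, for each library, whole-number counts per CpG: the observations and the methylated observations, not normalized. Per the submitters' processing notes, reads were aligned with Bowtie 0.10.0.1 and mm9 was the genome build. Whether PCR duplicates were removed is not given in the sources used here. The REST knockout file holds 273375318 observations, replicate 1 of ChIP-BisSeq 13411280 and replicate 2 25262179. Counts were summed from 500 bp upstream to 500 bp downstream of each TSS in Python 3.11.15 (pandas 2.3.3, NumPy 2.4.6), without CpGs of more than 96 REST knockout observations. Motifs were searched in the mm9 sequence. Fisher's exact test (SciPy 1.17.1) with Benjamini-Hochberg adjustment compares libraries and not conditions. It was also run on simulated counts. These were drawn as independent, which the ChIP-BisSeq observations were not, so that run does not show that the calls hold here. The members, gene lists and limits were chosen with earlier results of these data known. Genes were named by a rule: extremes of methylation with at least 100 observations, the least and most methylated of each list with at least 40, all pluripotency members, the largest differences, the highest CTCF coverage and REST matches. Genes named outside it (Trpm5, Scn2a1, Hapln2, Rpl21-ps11, C1r and family genes among them) were chosen after their values were seen. Figures were drawn with matplotlib 3.10.9.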

Additional observations from a re-analysis of the deposited data

How the results depend on the processing

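The median and the 3 class counts were recomputed under 9 other settings. The median left its interval with a window of 250 bp (68.6%, 2659 promoters) and as a mean over CpGs (70.2%), and with 3 to 10 CpGs (1955 promoters) the classes held 78, 935 and 942. Just upstream of the TSS, methylation was 63.6% as a mean over CpGs and 77.0% over promoters above 70% only. Promoters lower in the REST knockout library numbered 22 with at least 5 observations per replicate and 2 with at least 20. With 1 replicate left out, 38 to 49 were higher and 91 to 131 lower, of 494 promoters without replicate 2 and 1182 without replicate 1. Settings added after seeing the data gave 7 of the 17 higher at the same CpGs, where promoters not called were not recounted. They gave 5 higher without CTCF-covered promoters. By Fisher's exact test, 1 CpG per promoter gave 0 in both directions (30 tested, 1 in each direction at an unadjusted p of 0.05). Each CpG counted once also gave 0 in both by Fisher's exact test (168 tested, 1 higher and 3 lower at an unadjusted p of 0.05). At the same CpGs, the differences of Pcdhb5 (-2.90 points), Scn2a1 (-1.98) and Prpsap1 (-5.50) turned. CTCF-covered promoters numbered 160 at a log2 limit of 1 and 86 with a window of 250 bp. The replicates' r was 0.86 with at least 20 observations. In the remaining settings counts stayed within 1.5 times. The causes were not tested.

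No paired analysis was possible because the groups share fewer than 2 replicate numbers. With 1 REST knockout library, no difference from it has a replicate check, and genotype, strain and assay cannot be told apart. Below about 100 observations the class of a promoter is often uncertain.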

Other observations

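Some weakly methylated CpG-poor promoters lie next to each other. The complement protease genes C1rl, C1ra and C1rb on chromosome 6 had 9 of 45 (20.0%), 38 of 158 (24.1%) and 6 of 66 (9.09%) methylated observations in the REST knockout library, within flanks of 70.3, 72.9 and 73.4%. C1ra and C1rb were also low in ChIP-BisSeq, where C1ra had 7 of 99 in replicate 1 and 34 of 157 in replicate 2, and C1rb had 9 of 101 and 31 of 154. C1rb was CTCF-covered, with log2 values of 3.00 and 3.17, and holds an exact CTCF match. C1ra and C1rb are close copies, and reads may have been placed on the wrong one. Between Notch4 and Lst1 on chromosome 17, 4 of 14 CpG-poor promoters were below 30%: Notch4, a receptor of vessel cells (13 of 184, 7.07%), Ly6g6e (5 of 23, 21.7%), Ng23 (16 of 56, 28.6%) and Lst1 (102 of 347, 29.4%). On chromosome 2, Tfpi, an inhibitor of coagulation, had 17 of 128 (13.3%) and Ypel4 31 of 226 (13.7%), with Ctnnd1 at 3.70% between them.

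Among gene families taken by name, keratins were the most uniform of the larger ones, with 10 of 12 CpG-poor promoters above 70% and a range of 68.7 to 85.7%. Of 31 genes named Gpr, for orphan and other receptors coupled to G proteins, 24 were above 70% and the median was 77.3%. Bitter taste receptors (Tas2r) had a median of 51.4% over 10 promoters, 7 of them intermediate. Slc22a7, a liver and kidney transporter, stood apart from its family with 34 of 157 (21.7%), against a median of 67.6% over 7 promoters. These are descriptions of 1 library, and no family was tested.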
